A study of Mus musculus with 4 samples.

Results

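The cell junction genes of mouse skin described here are the claudins, occludin and the Tjp scaffolds of tight junctions, the desmogleins, desmocollins, plakophilins, desmoplakin and plakoglobin of desmosomes, and the alpha, beta and gamma connexins of gap junctions. They were taken by gene symbol alone, without regard to their levels, as whole symbols made of Cldn, Dsc, Pkp, Tjp, Gja, Gjb or Gjc and a number, of Dsg with a number and an optional letter, or as Dsp, Jup and Ocln. The rule took 58 of the 39179 genes in the files: 27 of tight junctions, 15 of desmosomes and 16 of gap junctions. Skin RNA was sequenced in 4 libraries, 2 of wild-type (WT) skin and 2 of lesional skin from mice lacking Itch, which encodes a HECT-type ubiquitin ligase; mice without it are known to develop itching and inflamed skin. All 4 came from C57BL/6 mice and carry inflammation as their labelled phenotype, the WT samples too. The sources used here state no age, body site or knockout allele, nor whether each library was a separate animal, so p-values measure the spread between libraries, which may be technical.

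Tight junctions seal the space between epithelial cells. In the epidermis they lie in the granular layer, where claudins form the strands, occludin joins them and the Tjp proteins tie them to actin. Desmosomes hold keratinocytes together. Their cadherins, the desmogleins and desmocollins, bind plakoglobin and plakophilins inside the cell, and desmoplakin links that plaque to keratin filaments. Gap junctions are channels of connexins through which small molecules pass from cell to cell, and keratinocytes make several connexins at once.

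Reads assigned to genes numbered 15144957 to 16008351 per library. Levels are given as CPM, a gene's count per 1000000 counts, on library sizes scaled by TMM, a method that evens out differences in library make-up, and 3 counts correspond to 0.189 to 0.200 CPM. Levels of different genes are compared only as CPM per kilobase of exon. Itch stood at 96.7 and 103 CPM in WT replicates 1 and 2 and at 11.7 and 11.7 CPM in the knockouts, on the labelled side in each library. Both WT libraries held Xist RNA, with 9997 counts or more, and both knockouts held at most 15 counts of it, while Ddx3y on the Y chromosome had at most 2 counts in WT and at least 754 in the knockouts. Genotype and sex therefore cannot be told apart in any comparison here. WT replicate 1 stood apart from the other 3 libraries. Its summed level of inner root sheath markers, genes of the growing hair follicle, was 41.7 CPM against 6077 to 9329 CPM in the others, and its skeletal muscle markers summed to 13116 CPM against 887 to 2122 CPM. Skin markers were present in all 4 libraries, and the 7 basal keratinocyte markers summed to 7820 to 9691 CPM. The 6 fibroblast markers summed to 1738 and 3126 CPM in WT skin against 13427 and 12175 CPM in lesional skin. The 5 macrophage markers summed to 154 and 146 CPM against 1085 and 1035 CPM. For the 4 neutrophil markers the sums were 9.0 and 31.2 CPM against 1792 and 800 CPM. Sums of suprabasal keratinocyte, sebaceous gland and skeletal muscle markers were lower in both knockouts than in both WT libraries. In bulk skin, fewer cells of a type and less RNA per cell cannot be told apart.

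Both knockouts lay below both WT libraries for 8 of 15 tested desmosome genes (53.3%), against 30% of all tested genes. The same held for 5 of 18 tight junction genes, where 27.8% was no more than that background. Both knockouts lay above both WT libraries for 6 of 13 connexin genes (46.2%), against 31.2% of all tested genes. Enough reads for a test were found for 46 of the 58 members: 18 of tight junctions, 15 of desmosomes and 13 of gap junctions. With edgeR's quasi-likelihood test and Benjamini-Hochberg adjustment over 16651 genes, 0 members passed an adjusted p of 0.05, where 0.00601% of all tested genes (1 gene, higher) passed. That gene was Eif2s3y on the Y chromosome (edgeR adjusted p = 0.0269). Itch, the targeted gene, did not pass either (log2 fold change -3.09, edgeR adjusted p = 0.0509). A lack of calls in this test is therefore no sign that a member was unchanged. At an unadjusted p under 0.05, 12 members were lower in the knockouts, which is 26.1% of the tested members against 10.9% of all tested genes. At the same threshold 4 members were higher, 8.7% against 12% of all tested genes. Among the 12 lower members were the tight junction genes Cldn23, Tjp3, Ocln and Tjp1, the desmosome genes Dsc1, Dsc3, Dsg1a, Dsg2, Dsp and Pkp2, and the connexin gene Gjb5. The 4 higher members were Cldn2, Dsg1c, Gja4 and Gjc1. Both knockouts lay below both WT libraries for 16 members, 34.8% against a background of 30%, and above both for 9, 19.6% against 31.2%. The other 21 tested members overlapped between the groups.

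The members closest to the threshold were Dsc1, Dsg1c, Gjb5, Tjp3 and Cldn23. Their adjusted p in edgeR was under 0.10, a looser limit set once results were known, which 4.74% of all tested genes met. Of the 5, 1 was higher, against 3.86% of all genes, and 4 were lower, against 0.877%. DESeq2 called 9 members lower and 2 higher, Dsg1c and Gjc1, where it called 6.16% and 7.83% of all genes. Limma-voom called 0 members, and 0% of all genes. At an unadjusted p under 0.05 it had 5 members higher, against 12.5% of all genes, and 12 lower, against 8.98%. The median log2 fold change, knockout over WT, was -0.08 for tight junction genes, -0.25 for desmosome genes and 0.75 for gap junction genes, and 0.01 over all tested genes. The gap junction median rested on WT replicate 1: it was -0.05 without that library.

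**Figure D1:**
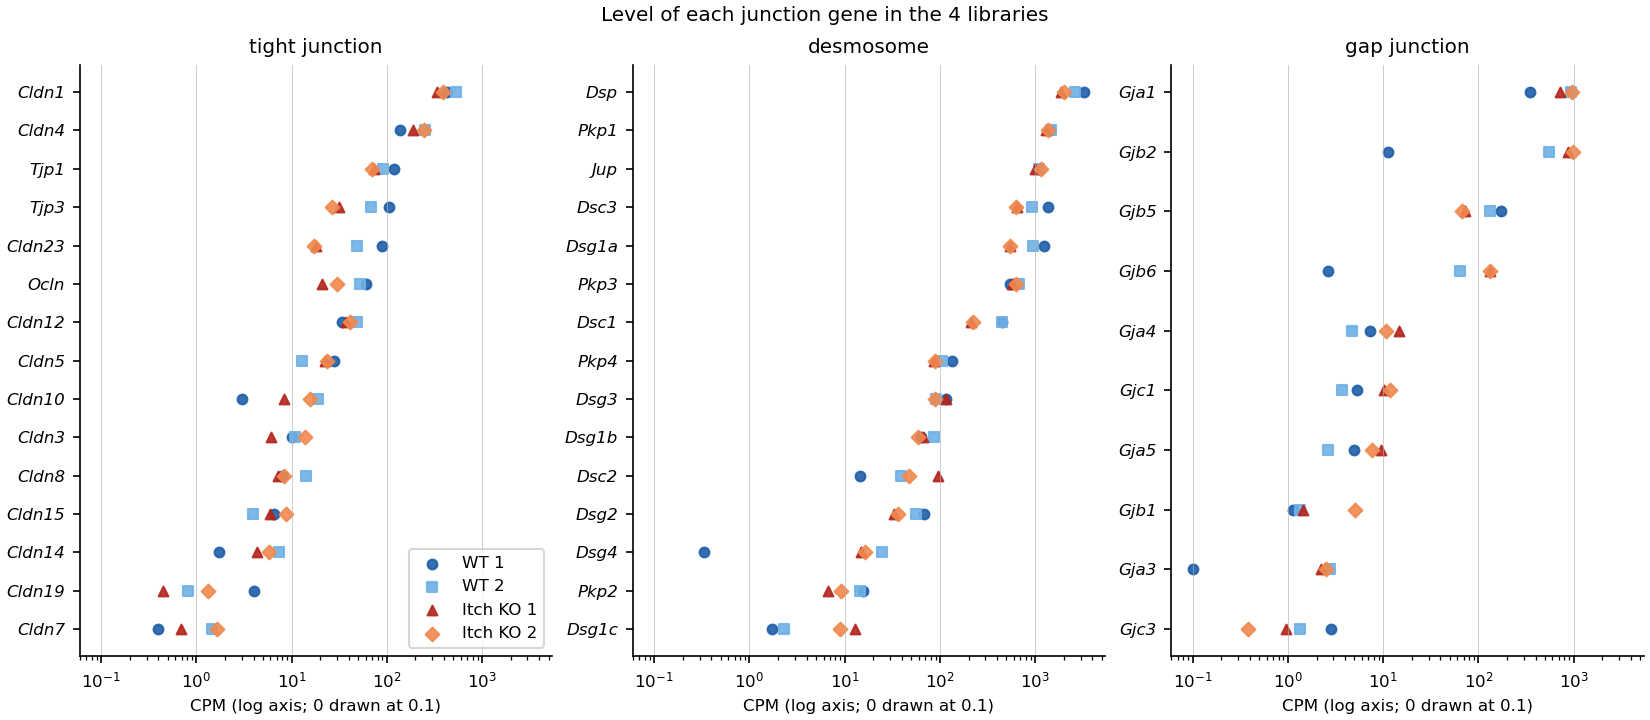
Level of 40 junction genes with a mean of 1 CPM or more, in CPM on a log axis, with 1 point per library and 1 panel per junction type. Gjb2, Gjb6, Gja3 and Dsg4 of WT replicate 1 lie far to the left of the other 3 libraries, and the knockout points of Cldn23, Tjp3, Dsc1 and Gjb5 lie left of both WT points.

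The claudin strand genes of the epidermis were led by Cldn1 and Cldn4. Cldn1, whose loss in mice is known to cause fatal water loss through the skin, had 430 and 534 CPM in WT skin against 337 and 390 CPM in lesional skin (log2 fold change -0.41, SE 0.20, edgeR adjusted p = 0.298). Both knockouts lay below both WT libraries, by less than the test could separate. Cldn4, a claudin of the upper epidermal layers, had 138 and 251 CPM in WT skin against 187 and 248 CPM in lesional skin, so the groups overlapped. Together the 2 genes made up 63.0% and 76.4% of the summed claudin level per kilobase in WT skin against 76.4% and 76.9% in lesional skin.

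Cldn23 had the largest fold of the tested claudins that were lower. The gene (ENSMUSG00000055976) lies on GRCm38 chromosome 8 from 35824712 to 35826559 on the minus strand. It had 89.0 and 48.1 CPM in WT skin against 18.1 and 17.0 CPM in lesional skin (log2 fold change -1.96, SE 0.35, edgeR adjusted p = 0.0927). Its share of the claudin level per kilobase was 18.4% in WT replicate 1 and 8.01% in WT replicate 2, and 4.34% and 3.26% in the knockouts. Every knockout value was below every WT value, and the WT libraries themselves differed. DESeq2 gave adjusted p = 3.44e-05. Against WT replicate 2 alone the log2 fold change was -1.46 (edgeR adjusted p = 0.0135), and against WT replicate 1 alone it was -2.34 (adjusted p = 0.000517). In such fits the single WT library is assumed to vary like the 2 knockouts.

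Occludin and the scaffold genes Tjp1 and Tjp3 were lower in both knockouts. Ocln, the membrane partner of claudins in the strand, had 60.1 and 52.6 CPM in WT skin against 21.1 and 30.2 CPM in lesional skin (log2 fold change -1.14, SE 0.24, edgeR adjusted p = 0.116, DESeq2 adjusted p = 0.00389). Tjp3 had 106 and 67.5 CPM in WT skin against 31.7 and 26.8 CPM in lesional skin (log2 fold change -1.56, SE 0.28, edgeR adjusted p = 0.0925, DESeq2 adjusted p = 0.000131). Tjp1, the most widely made of these scaffolds, had 119 and 92.2 CPM in WT skin against 73.3 and 69.4 CPM in lesional skin (log2 fold change -0.56, SE 0.19, edgeR adjusted p = 0.193). For these 3 genes the groups did not overlap. As a share of the summed Tjp level per kilobase, Tjp3 was 45.2% and 30.5% in WT skin against 22% and 16.9% in lesional skin.

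Other claudins overlapped between the groups or were sparse. Cldn12 had 33.7 and 48.2 CPM in WT skin against 37.5 and 40.7 CPM in lesional skin, and Cldn3 had 10.2 and 11 CPM, then 6.06 and 13.8 CPM. Cldn8 had 7.87 and 14.1 CPM in WT skin against 7.14 and 8.41 CPM in lesional skin. None of these 3 separated the groups. Cldn10 and Cldn14 shared a pattern in which WT replicate 1 alone was low. Cldn10 stood at 3.0 CPM there, 19.1 CPM in WT replicate 2 and 8.27 and 15.8 CPM in the knockouts, and Cldn14 stood at 1.73, 7.45, 4.36 and 5.80 CPM in the same order. Cldn15 had 6.53 and 3.98 CPM in WT skin, then 6.0 and 8.79 CPM in lesional skin. Cldn7 had 0.400 and 1.45 CPM in WT skin, then 0.695 and 1.66 CPM in lesional skin, and both genes overlapped between groups.

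Claudins of vessels and nerve are given beside markers of those cells. Cldn5, the claudin of endothelial cells, had 27.9 and 12.8 CPM in WT skin against 22.3 and 23.7 CPM in lesional skin. The 7 endothelial markers summed to 332 and 143 CPM in WT skin against 381 and 316 CPM in lesional skin, so WT replicate 2 was lowest for both, and Cldn5 had 84.1, 88.9, 58.6 and 74.9 counts per 1000 counts of these markers. Cldn19, a claudin of Schwann cells, had 4.0 and 0.821 CPM in WT skin against 0.442 and 1.34 CPM in lesional skin, with groups that overlapped. The 7 Schwann cell markers summed to 597 and 226 CPM in WT skin against 312 and 308 CPM in lesional skin, highest in WT replicate 1 as for Cldn19. The part of either cell type in these levels was not tested.

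Low claudin genes close the group. Cldn2, a pore-forming claudin on the X chromosome, had 0 and 2 counts in WT skin against 14 and 12 in lesional skin (unadjusted p = 0.0175 and adjusted p = 0.154 in edgeR), and its fitted fold depends on the few WT counts. Cldn22 had 5 to 29 counts, and its exons lie wholly within exons of Wwc2 on the other strand, so its counts are uncertain without a known strand setting. Cldn13, Cldn16 and Cldn24 had 0 counts in all 4 libraries, which allows up to 0.189 to 0.200 CPM. That limit may not hold for Cldn24. Of the 50-base stretches in its transcripts, 68.9% occur in another gene, Cldn22 and Wwc2 among them, so its reads could be dropped in counting. Cldn6, Cldn9, Cldn11, Cldn17, Cldn18 and Cldn20 had between 0 and 18 counts per library and were not tested.

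**Figure D2:**
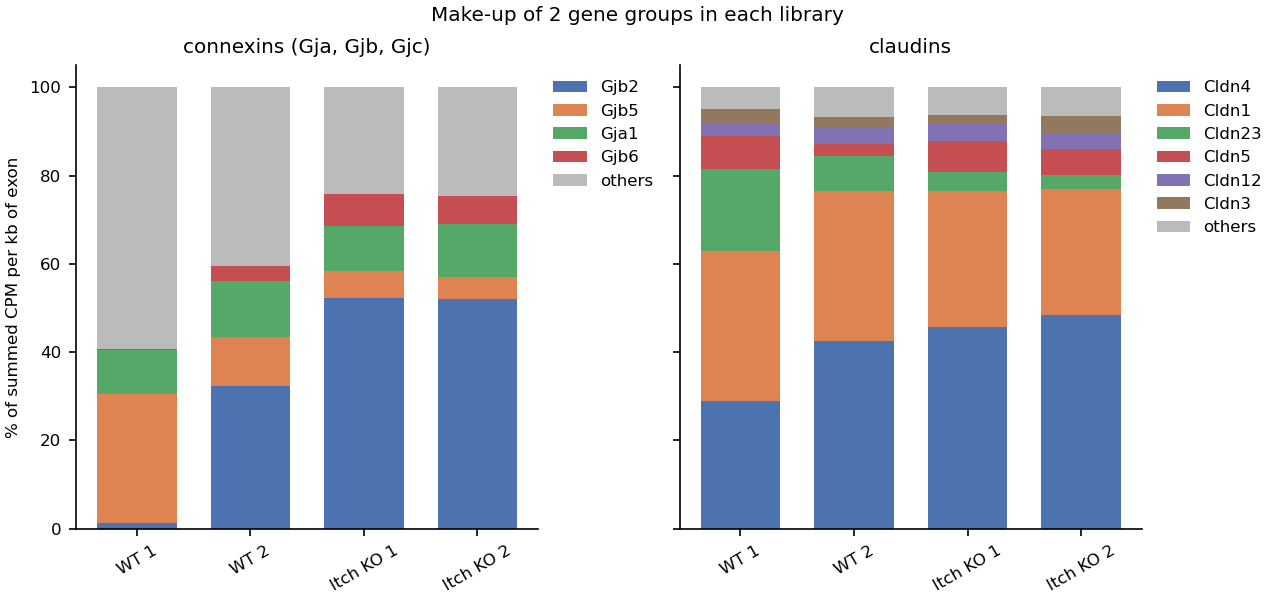
Make-up of 2 gene groups in each library, as the percentage of the group's summed CPM per kilobase of exon, with 4 connexins and the 6 leading claudins named and the rest pooled. Gjb2 takes 1.36% of the connexin level in WT replicate 1, 32.4% in WT replicate 2 and 52.3% and 51.9% in the knockouts. Cldn23 takes a smaller part of the claudin level in both knockouts than in either WT library.

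Among desmosome genes, desmoplakin and the cadherins Dsc1, Dsc3, Dsg1a and Dsg2 were lower in both knockouts at an unadjusted p under 0.05, as was the plakophilin gene Pkp2, while Jup, Pkp1 and Pkp3 were not. All 15 were tested. Per kilobase of exon, the highest means over the 4 libraries were 277 CPM per kb for Pkp1, 252 for Dsp, 170 for Jup, 168 for Pkp3, 165 for Dsc3 and 145 for Dsg1a. Both knockouts lay below both WT libraries for 8 of the 15 genes, 53.3% against a background of 30%, and 6 genes (40%) were lower at an unadjusted p under 0.05, against 10.9% of all tested genes.

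Dsc1, Dsg1a and Dsc3, cadherins of upper and lower epidermal layers, were at lower levels in the knockouts. Dsc1, the desmocollin of the outermost living layers, had 454 and 451 CPM in WT skin against 212 and 221 CPM in lesional skin (log2 fold change -1.06, SE 0.15, edgeR adjusted p = 0.0750, DESeq2 adjusted p = 9.0e-08). The WT libraries, which differed in many other genes, were nearly equal here, and so were the knockouts. Against WT replicate 2 alone Dsc1 had a log2 fold change of -1.06 (edgeR adjusted p = 0.0160), and against WT replicate 1 alone -1.06 (adjusted p = 0.00463). Dsg1a, the main desmoglein copy of the upper layers in these libraries, had 1253 and 956 CPM in WT skin against 539 and 545 CPM in lesional skin (log2 fold change -1.03, SE 0.21, edgeR adjusted p = 0.111, DESeq2 adjusted p = 0.000337). Dsc3, a desmocollin of the lower layers, had 1366 and 934 CPM in WT skin against 649 and 625 CPM in lesional skin (log2 fold change -0.85, SE 0.25, edgeR adjusted p = 0.168). All 3 cadherins separated the groups.

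The remaining copies of the Dsg1 cluster did not follow Dsg1a. Dsg1b had 63.1 and 86.8 CPM in WT skin against 67.1 and 58.8 CPM in lesional skin, with overlapping groups. Dsg1c was higher in both knockouts, at 12.8 and 8.86 CPM against 1.73 and 2.34 CPM in WT (log2 fold change 2.40, SE 0.38, edgeR adjusted p = 0.0806, DESeq2 adjusted p = 7.66e-05). Its 26 and 37 counts in WT skin against 202 and 139 in lesional skin came to 0.00138 and 0.00244 counts per Dsg1a count in WT skin against 0.0237 and 0.0163 in lesional skin. These copies resemble each other: of all 50-base stretches in their annotated transcripts, 35% of Dsg1a, 48.9% of Dsg1b and 29.6% of Dsg1c occur in another gene, so reads from them could be split or dropped in counting.

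Dsg3, the desmoglein of the basal layers, overlapped between groups at 117 and 92.2 CPM in WT skin against 115 and 87.9 CPM in lesional skin. The ratio of Dsg1a to Dsg3 counts was 10.8 and 10.4 in WT skin against 4.69 and 6.20 in lesional skin, without overlap. Dsg2, made in simple epithelia, the hair follicle and the heart, had 68.7 and 55.9 CPM in WT skin against 32.6 and 36.4 CPM in lesional skin (log2 fold change -0.85, SE 0.19, edgeR adjusted p = 0.119, DESeq2 adjusted p = 0.00983). Dsc2, its usual partner, had 14.3 and 38.8 CPM in WT skin against 94.8 and 47.6 CPM in lesional skin (log2 fold change 1.42, SE 0.62, edgeR adjusted p = 0.262). Dsc2 was thus above both WT libraries in both knockouts while Dsg2 was below both. The log2 fold change of Dsc2 was 0.87 against WT replicate 2 alone and 2.32 against WT replicate 1 alone. Dsg4, a hair shaft desmoglein, was measured at 0.333 CPM in WT replicate 1, 24.5 CPM in WT replicate 2 and 14.9 and 16.3 CPM in the knockouts. WT replicate 1 was alone in being nearly without it, as it was for the hair follicle markers.

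Desmoplakin was lower and the main plaque genes overlapped or nearly so. Dsp, which anchors keratin filaments, had 3245 and 2594 CPM in WT skin against 1867 and 2024 CPM in lesional skin (log2 fold change -0.59, SE 0.22, unadjusted p = 0.0496 and adjusted p = 0.218 in edgeR). Jup, encoding plakoglobin, had 1108 and 1112 CPM in WT skin against 990 and 1156 CPM in lesional skin (log2 fold change -0.05, SE 0.19). Pkp1, the leading plakophilin of suprabasal layers, had 1450 and 1455 CPM in WT skin, then 1296 and 1363 CPM in lesional skin (log2 fold change -0.13, SE 0.18). Pkp3, a plakophilin of all epidermal layers, had 548 and 676 CPM in WT skin, then 577 and 630 CPM in lesional skin (log2 fold change -0.02, SE 0.19). These 3 plaque genes differed by little in either direction, although Pkp1 did not overlap between groups. Pkp2, the plakophilin of heart and simple epithelia, was scarce at 15.5 and 14.6 CPM in WT skin, then 6.76 and 9.24 CPM in lesional skin (log2 fold change -0.92, SE 0.28, edgeR adjusted p = 0.176), and Pkp4 had 134 and 105 CPM in WT skin, then 87.4 and 89.8 CPM in lesional skin (log2 fold change -0.44, SE 0.18).

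Counts are also given per Jup count in the same library, which needs no scaling between libraries. Jup was chosen as the denominator after its nearly equal levels were seen, so these ratios restate the levels above and add no support to them. There were 2.93 and 2.33 Dsp counts per Jup count in WT skin against 1.89 and 1.75 in lesional skin. For Dsg1a the ratios were 1.13 and 0.860 against 0.544 and 0.471, and for Dsc3 1.23 and 0.840 against 0.656 and 0.540. Dsc1 had 0.410 and 0.406 counts per Jup count in WT skin against 0.214 and 0.191 in lesional skin. Pkp1 held close to 1.31 in both WT libraries and in knockout replicate 1 and was 1.18 in knockout replicate 2.

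**Figure D3:**
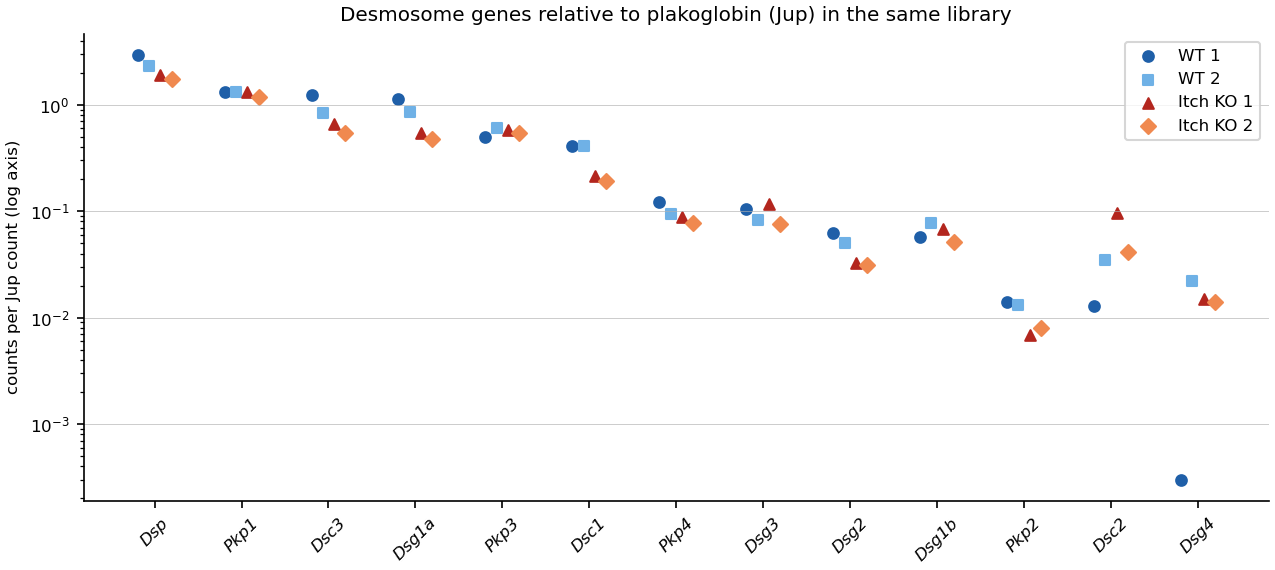
Counts of desmosome genes other than Dsg1c per Jup count in the same library, on a log axis, with 1 point per library and genes in the order of WT replicate 1. Dsp, Dsc3, Dsg1a, Dsc1, Dsg2, Pkp2 and Pkp4 have both knockouts below both WT libraries, and Dsc2 has both above. Pkp1 and Pkp3 lie close together, and Dsg4 of WT replicate 1 lies far below the rest.

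Markers of epidermal layers are given beside these genes. The 7 basal keratinocyte markers overlapped between groups in their sum, at 9691 and 7820 CPM in WT skin against 7879 and 8402 CPM in lesional skin. The 7 matched suprabasal keratinocyte markers summed to 11626 and 12843 CPM in WT skin against 8086 and 9523 CPM in lesional skin, 5 of them lower at an unadjusted p under 0.05, against 10.9% of all tested genes, and 0 past the adjusted threshold in edgeR. The 6 wound keratinocyte markers summed to 807 and 2477 CPM in WT skin against 6811 and 8023 CPM in lesional skin. Set against the summed counts of the basal and suprabasal lists, which leave out the wound keratinocyte markers, Dsc1 had 21.3 and 21.8 counts per 1000 in WT skin against 13.3 and 12.3 in lesional skin, Dsg1a 58.8 and 46.2 against 33.7 and 30.4, and Ocln 2.82 and 2.55 against 1.32 and 1.68. On the same scale Cldn1 had 20.2 and 25.8 in WT skin against 21.1 and 21.7 in lesional skin, and Jup 52.0 and 53.8 against 62.0 and 64.5. On this scale both knockouts lay below both WT libraries for Dsc1, Dsg1a and Ocln and above both for Jup, and Cldn1 overlapped. Dsp, Dsc3, Tjp3, Cldn23 and Gjb5 also lay below both WT libraries. Pkp1 lay above both, at 68.0 and 70.4 in WT skin against 81.2 and 76.0 in lesional skin. Pkp3 did too, at 25.7 and 32.7 against 36.1 and 35.1. In CPM, however, Pkp1 lay below both WT libraries, and Jup and Pkp3 overlapped. The suprabasal sum, a part of the denominator here, was itself lower in both knockouts. The part of cell make-up in these levels was not tested.

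Connexin genes held the widest differences between libraries. Gjb2 and Gjb6, connexins that are scarce in resting epidermis between follicles and known to be raised in wounds and psoriasis, were highest in both knockouts, but WT replicate 1 almost lacked them. Gjb2 (ENSMUSG00000046352, GRCm38 chromosome 14, 57098600 to 57104702, minus strand) had 11.1 and 552 CPM in WT skin against 866 and 974 CPM in lesional skin. Gjb6 (ENSMUSG00000040055, chromosome 14, 57123303 to 57133611, minus strand), its neighbour 18.6 kb away, had 2.67 and 64.8 CPM in WT skin against 133 and 132 CPM in lesional skin. Both knockouts lay above both WT libraries for the pair. Their log2 fold changes were 1.71 (SE 1.64, edgeR adjusted p = 0.559) and 1.98 (SE 1.38, adjusted p = 0.429), and the WT libraries lay far apart for both.

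The size of both differences depended on the WT library used. Against WT replicate 2 alone, the log2 fold change of Gjb2 was 0.73 and that of Gjb6 was 1.03 (edgeR adjusted p = 0.0194 for Gjb6), and against WT replicate 1 alone they were 6.37 and 5.64 (adjusted p = 0.000106 for each). There were 4.17 and 8.52 Gjb2 counts per Gjb6 count in WT skin against 6.49 and 7.36 in lesional skin. Gja3, a connexin best known from the lens and the next gene of the cluster at 40.5 kb from Gjb2, had 0 and 44 counts in WT skin against 35 and 39 in lesional skin. Its knockout mean was at least 11.7-fold higher than WT replicate 1, taken at 3 counts in that library, but not above WT replicate 2. All 3 neighbours were thus lowest in WT replicate 1, the library with few hair follicle markers. In the order WT replicates 1 and 2 and knockout replicates 1 and 2, the inner root sheath markers stood at 41.7, 8548, 6077 and 9329 CPM. These markers were not higher in both knockouts than in WT replicate 2. The sum of the hair shaft and matrix markers, also of the follicle, was higher in both knockouts than in both WT libraries. It was 55.7, 1039, 1139 and 1308 CPM in that order. Of the 7 tested, 3 lay above both WT libraries, against 31.2% of all tested genes, 0 lay below both, and the rest overlapped. The sum of the wound keratinocyte markers was also higher in both knockouts, at 807, 2477, 6811 and 8023 CPM. The part of follicle or wound keratinocytes in Gjb2 and Gjb6 was not tested.

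**Figure D4:**
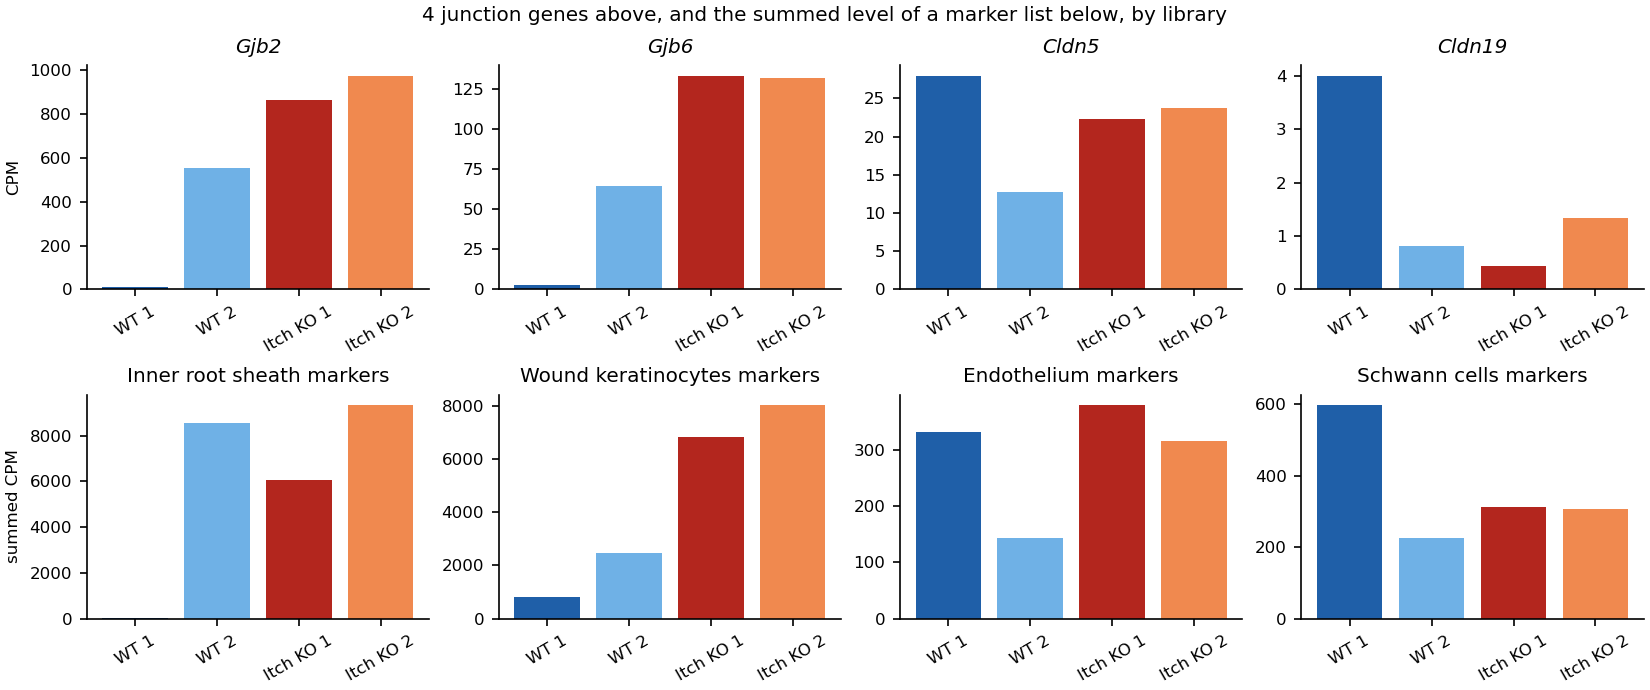
Level in CPM of Gjb2, Gjb6, Cldn5 and Cldn19 in each library (upper bars) and the summed CPM of 1 marker list below each (lower bars), all from 0. Gjb2 and the inner root sheath list are nearly absent in WT replicate 1, and Gjb6 and the wound keratinocyte list are highest in both knockouts. Gjb6 is also lowest in WT replicate 1, and Gjb2 is also highest in both knockouts. Cldn5 and the endothelial list are lowest in WT replicate 2, and Cldn19 and the Schwann cell list are highest in WT replicate 1.

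Gjb5, a connexin of differentiating keratinocytes on another chromosome, was lower in both knockouts. It (ENSMUSG00000042357, chromosome 4, 127354809 to 127358181, minus strand) had 171 and 134 CPM in WT skin against 72.8 and 68.0 CPM in lesional skin (log2 fold change -1.11, SE 0.19, edgeR adjusted p = 0.0858, DESeq2 adjusted p = 0.000163). Against WT replicate 2 alone its log2 fold change was -0.93, and against WT replicate 1 alone -1.28. Both knockouts thus lay below WT for Gjb5 and above WT for Gjb2 and Gjb6.

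Since Gjb2 and Gjb6 are neighbours whose levels varied together and Gjb5 stood on the other side of WT, the 250 bases before the RefSeq start of Gjb2, Gjb6 and Gjb5 are shown with those of Cldn4, the claudin with the largest share in the knockouts. They are on GRCm38 at chr14:57104703-57104952, chr14:57133612-57133861, chr4:127358165-127358414 and chr5:134946935-134947184, all on the minus strand and printed 5′ to 3′. Capitals mark matches on either strand to TGANTCA (the AP-1 motif), TATAAA (the TATA motif) or GGGCGG (the GC box), and no match in these 4 windows overlaps another.
Gjb2: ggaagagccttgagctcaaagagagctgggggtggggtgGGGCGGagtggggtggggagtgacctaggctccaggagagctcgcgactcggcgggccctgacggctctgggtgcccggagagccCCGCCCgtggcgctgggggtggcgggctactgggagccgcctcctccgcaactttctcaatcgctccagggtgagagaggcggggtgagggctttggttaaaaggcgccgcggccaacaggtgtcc
Gjb6: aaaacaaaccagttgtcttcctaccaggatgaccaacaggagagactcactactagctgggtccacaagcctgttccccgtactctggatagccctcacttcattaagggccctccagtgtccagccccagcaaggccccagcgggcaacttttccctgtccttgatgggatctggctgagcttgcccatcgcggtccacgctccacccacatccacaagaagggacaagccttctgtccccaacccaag
Gjb5: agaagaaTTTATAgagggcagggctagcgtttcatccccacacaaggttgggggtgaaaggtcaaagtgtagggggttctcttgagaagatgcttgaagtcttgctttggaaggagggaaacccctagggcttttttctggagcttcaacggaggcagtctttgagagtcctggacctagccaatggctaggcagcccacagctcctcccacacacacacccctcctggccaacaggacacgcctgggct
Cldn4: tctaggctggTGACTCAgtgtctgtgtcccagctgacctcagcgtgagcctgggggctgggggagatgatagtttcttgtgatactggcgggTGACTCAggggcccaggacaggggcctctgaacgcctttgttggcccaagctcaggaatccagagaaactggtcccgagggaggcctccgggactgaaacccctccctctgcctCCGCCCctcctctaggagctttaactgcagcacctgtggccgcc

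A table of such windows, made from RefSeq on GRCm38.p6, held 36 of the 58 members, with 51 windows. Gjb2 held 2 GC boxes, Cldn4 held 1, and Gjb5 held 1 TATA match at 243 bases before its start. AP-1 letters stood in 3 of the 51 windows, 5.9% against 6.75% of 32851 windows of all genes, those of Cldn4, Cldn15 and Gja1. Cldn4 held matches starting 240 and 158 bases before its start, and Gja1 held 1 at 19 bases. The GC box stood in 43.1% of member windows against 32.7% of all, and TATA letters in 9.8% against 12.4%. The windows of Gjb2 and Gjb6, whose levels varied together, shared none of these 3 motifs. A match describes these letters only.

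Gja1, the most widespread connexin of skin, had 346 and 931 CPM in WT skin against 715 and 966 CPM in lesional skin, with overlapping groups and its lowest value in WT replicate 1 (log2 fold change 0.40, SE 0.53). Its direction depended on the WT library, at -0.15 against WT replicate 2 alone and 1.29 against WT replicate 1 alone. As a share of the connexin level per kilobase, Gjb2 was 1.36% and 32.4% in WT skin against 52.3% and 51.9% in lesional skin. Gjb5 was 29.2% and 11% in WT skin, and 6.14% and 5.07% in lesional skin. The summed level of all 16 connexins was 341 and 708 CPM per kb in WT and 688 and 780 CPM per kb in the knockouts, so WT replicate 2 lay between the knockouts.

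Connexins of vessels and muscle walls were higher in both knockouts. Gja4, an arterial endothelial connexin, had 7.20 and 4.73 CPM in WT skin against 14.8 and 10.8 CPM in lesional skin (log2 fold change 1.10, SE 0.36, edgeR adjusted p = 0.188). Gja5, its arterial partner, had 5.0 and 2.65 CPM in WT skin against 9.41 and 7.65 CPM in lesional skin (log2 fold change 1.16, SE 0.43, adjusted p = 0.221 in edgeR). Gjc1, made in smooth muscle and the heart's conduction system, had 5.27 and 3.72 CPM in WT skin against 10.3 and 11.7 CPM in lesional skin (log2 fold change 1.29, SE 0.33, edgeR adjusted p = 0.142, DESeq2 adjusted p = 0.0232). All 3 separated the groups. The endothelial markers, of which 1 of 7 was higher at an unadjusted p under 0.05, overlapped between groups in their sum, and per 1000 counts of them Gja4 had 21.7 and 33.0 counts in WT skin against 38.8 and 34.2 in lesional skin. The smooth muscle and pericyte markers summed to 274 and 327 CPM in WT skin against 473 and 558 CPM in lesional skin. The part of these cells in the connexin levels was not tested. Of the 50-base stretches of Gja5 transcripts, 15.3% occur in another gene, among them Gpr89 on the other strand.

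Connexins of myelin-forming cells are given next. Gjc3 had 2.87 and 1.33 CPM in WT skin against 0.947 and 0.382 CPM in lesional skin (log2 fold change -1.64, SE 0.69, edgeR adjusted p = 0.249), below both WT libraries. Its log2 fold change was -0.99 against WT replicate 2 alone and -2.09 against WT replicate 1 alone, the library in which the Schwann cell markers were highest, at 597 CPM against 226 to 312 CPM in the others. Per 1000 counts of these markers Gjc3 had 4.8, 5.87, 3.04 and 1.24 counts in WT replicates 1 and 2 and knockout replicates 1 and 2, and the part of Schwann cells in its level was not tested. Gjb1, a connexin of Schwann cells and liver on the X chromosome, had 1.13 and 1.33 CPM in WT skin against 1.45 and 5.10 CPM in lesional skin, with the difference carried by knockout replicate 2. Gja10 had 0 counts in all libraries, and Gja6 had at most 2.

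**Figure D5:**
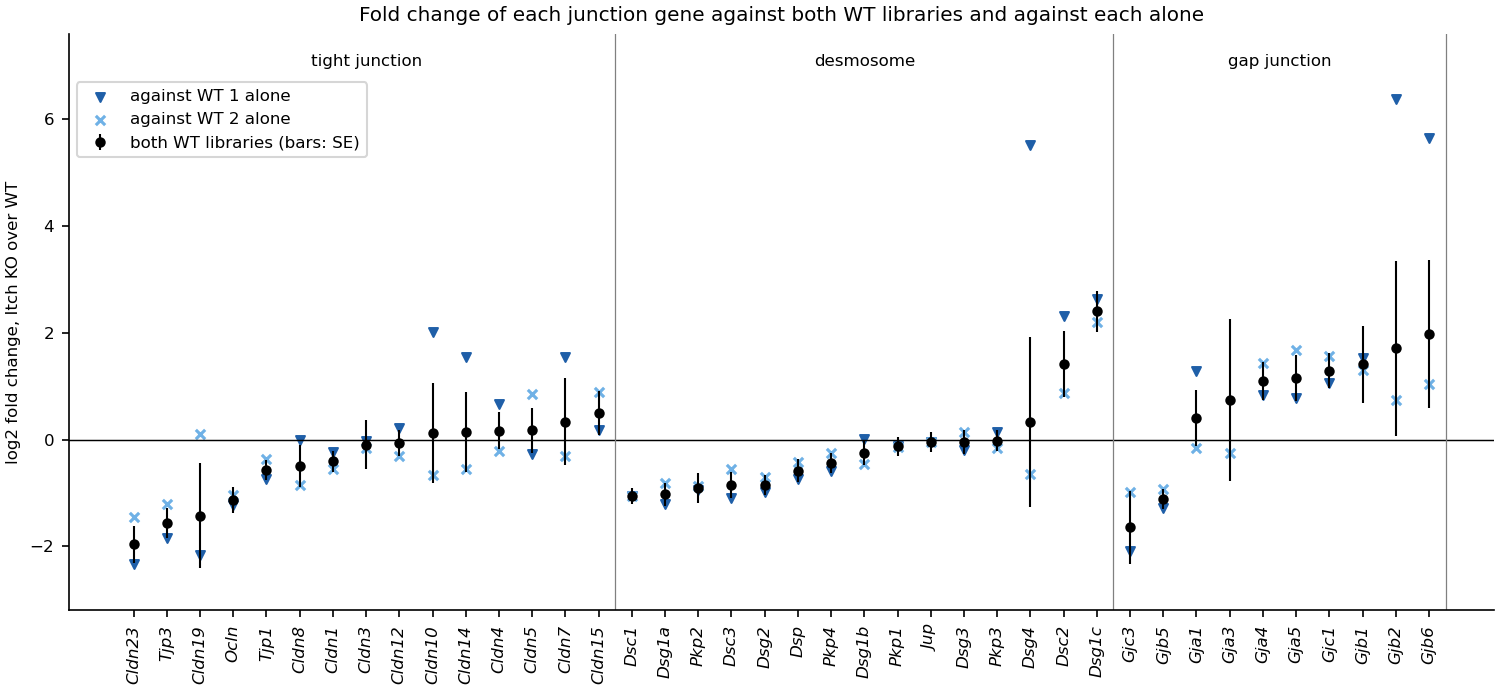
Log2 fold change, knockout over WT, of 40 junction genes with a mean of 1 CPM or more, against both WT libraries (black, bars are SE) and against each WT library alone (blue). The 2 blue marks of Dsc1, Gjb5, Dsg1c and Gjc1 lie on 1 side of 0, while those of Gjb2, Gjb6 and Dsg4 lie far apart; no mark is drawn for Gja3 against WT replicate 1, where it had 0 counts.

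Leaving out a WT library shows how far the members rest on either. Without WT replicate 1, edgeR called 3 members higher (Dsg1c, Gjb6 and Gjc1) and 6 lower (Cldn23, Dsc1, Dsg1a, Gjb5 and Tjp3 among them), where it called 5.52% of all genes higher and 2.17% lower (7.69% in all). At an unadjusted p under 0.05, 8 members were then higher and 15 lower, against 14.2% and 9.52% of all genes. Without WT replicate 2, it called 10 higher and 11 lower, where it called 15.3% of all genes in each direction (30.6% in all). At an unadjusted p under 0.05 these were 13 and 16 members, against 22.2% and 21.7% of all genes. The 10 higher members were Cldn2, Cldn10, Cldn14, Dsg1c, Dsg4, Gja1, Gja3, Gjb2, Gjb6 and Gjc1. The 11 lower members were Cldn23, Dsc1, Dsc3, Dsg1a, Dsg2, Dsp, Gjb5, Ocln, Pkp4, Tjp1 and Tjp3. These 2 fits share the knockout libraries and are no independent evidence for each other. Without knockout replicate 1, edgeR called 0 members and 0% of all genes, and at an unadjusted p under 0.05 it had 2 members higher and 5 lower, against 5.81% and 2.48% of all genes. Without knockout replicate 2 it again called 0 members and 0% of all genes, with 1 member higher and 6 lower at that level, against 6.84% and 1.83%.

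Partner genes of the same junctions, come from lists written with earlier results of these data known. Of 24 tested tight junction partners, 0 were called by edgeR, 8 were lower and 0 higher at an unadjusted p under 0.05, 6 were lower in DESeq2, and both knockouts lay below both WT libraries for 16 (median log2 fold change -0.45). Over all tested genes, 10.9% were lower at that unadjusted p, 6.16% were lower in DESeq2, 30% lay below both WT libraries and the median was 0.01. Cgn, encoding the tight junction plaque protein cingulin, had 129 and 60.4 CPM in WT skin against 22.7 and 21.3 CPM in lesional skin (log2 fold change -2.11, SE 0.41, edgeR adjusted p = 0.104). Lsr, a protein of corners where 3 cells meet, had 81.1 and 63.5 CPM in WT skin, then 35.6 and 36.1 CPM in lesional skin, and Marveld2, another such protein, had 47.5 and 31.4 against 17.4 and 15.7 CPM. Of 14 tested desmosome partners, 0 were called by edgeR, and 4 were lower and 1 higher at an unadjusted p under 0.05, against 10.9% and 12% of all tested genes. In DESeq2, 3 were lower and 1 higher, against 6.16% and 7.83%. Ppl, encoding the desmosomal and cornified envelope protein periplakin, had 710 and 476 CPM in WT skin against 286 and 265 CPM in lesional skin, and Grhl1, a transcription factor of desmosomal cadherin genes, had 426 and 438 against 246 and 254 CPM. The 1 higher gene was Krt14, a basal layer keratin, at 1617 and 1888 CPM in WT skin against 2979 and 3475 CPM in lesional skin. Krt14 is also 1 of the 7 basal keratinocyte markers, of which 2 others were lower at that unadjusted p.

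Of 11 tested adherens junction genes, 0 were called by edgeR, 3 were lower at an unadjusted p under 0.05, against 10.9% of all tested genes, and 1 was lower in DESeq2, against 6.16% (median log2 fold change -0.19). Afdn, which encodes the nectin-binding protein afadin, had 343 and 335 CPM in WT skin against 221 and 257 CPM in lesional skin, and Nectin3, a partner of afadin, had 141 and 68.4 against 39.9 and 51.1 CPM. Among the relatives of connexins 2 could be tested. Panx1, encoding a pannexin channel, had 35.9 and 42.5 CPM in WT skin against 57.7 and 56.6 CPM in lesional skin (log2 fold change 0.54, SE 0.17, edgeR adjusted p = 0.178).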

How the data were processed

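RNA from 2 WT and 2 Itch knockout skin samples was deposited by the authors as read counts per Ensembl gene, 1 file per library, not normalized. The submitters' processing notes name HTSeq 0.6.1, SAMtools 0.1.19, TopHat2 and CASAVA 1.8.2, with mm10 (GRCm38) as the build. Since they state no annotation release, strand setting or read filter, genes that overlap another gene or share its sequence are uncertain. Counter lines that name no gene (no feature, 5.68 to 7.45% of counted reads; ambiguous, 4.48 to 4.70%) were left out. GENCODE vM21 named 37693 of 39179 identifiers and gave exon lengths.

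Counts were tested in R 4.3.3 with edgeR 4.0.16 (filterByExpr with a minimum count of 10, TMM, robust quasi-likelihood F test, two-sided, Benjamini-Hochberg over 16651 genes). SE is the absolute log2 fold change over the square root of F. DESeq2 1.42.0 and limma 3.58.1 (voom) were alternatives, as were RLE and upper-quartile scaling, no filter, the replicate block, each library left out, and X and Y genes left out. The procedure was tested on simulated counts. Floors (3 counts) cover counting error only. No library repeated another: chi-square over its degrees of freedom was 84.4 for the WT pair and 18.4 for the knockout pair. Members with a mean of 1 CPM or more are given for every library and others by range, and some members are counted but not reported here by name. Of the other lists up to 3 genes with the smallest p are named. Members and lists were chosen with earlier results of these data known. Some marker symbols had no match: 1 suprabasal, 1 hair shaft and 1 tight junction partner symbol.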

Additional observations from a re-analysis of the deposited data

How the results depend on the processing

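Counts of calls depended on the tool and on the WT libraries. For all tested genes edgeR called 1; it called 488 without a filter on low counts, 0 with the replicate block (3998 at an unadjusted p under 0.05) and 0 with X and Y genes left out (3649 at an unadjusted p under 0.05), while DESeq2 called 2329 and limma-voom 0 (3582 at an unadjusted p under 0.05). Members called, 0 in the reported fit, were 2 without the filter (Cldn23 and Tjp3) and 11 in DESeq2. With 1 library left out, calls ranged from 0 to 5320 over all genes and from 0 to 21 among members, and members at an unadjusted p under 0.05 from 1 to 13 higher and from 5 to 16 lower. The median log2 fold change of tight junction genes was -0.32 without the filter and -0.47 to -0.14 with 1 library left out. That of desmosome genes was -0.42 to -0.16, and that of gap junction genes 1.11 with the replicate block and -0.049 to 0.83 with 1 library left out. Replicate numbers are the labels' own and are not known to pair the samples. Deviations of equal numbers correlated at 0.19 over all tested genes, and the block called 0 members. The sign of 15 members shown one by one changed in some fit without 1 library. The log2 fold changes then ranged over -0.47 to 0.0010 for Dsg1b, -0.25 to 0.14 for Dsg3, -0.65 to 5.52 for Dsg4, -0.16 to 0.052 for Jup, -0.17 to 0.14 for Pkp3, -0.15 to 1.29 for Gja1, -0.25 to 8.19 for Gja3, -0.67 to 2.01 for Cldn10, -0.30 to 0.22 for Cldn12, -0.56 to 1.55 for Cldn14, -2.42 to 0.11 for Cldn19, -0.80 to 0.37 for Cldn3, -0.21 to 0.67 for Cldn4, -0.28 to 0.85 for Cldn5, -0.41 to 1.54 for Cldn7. The value of 8.19 for Gja3 is against 0 counts and is no bound. Pkp3 was 0.0012 without the filter, and no other sign changed in the 7 settings that kept all 4 libraries. The cause was not tested. Of the 12 members with too few counts for a test, 5 had 0 counts in all 4 libraries, and low depth and lack of expression cannot be told apart for them.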
